A study of Mus musculus with 3 samples.

Results

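NK cells and CD8 T cells that carried *Gzmb* transcripts were compared within 3 libraries of tumor-infiltrating lymphocytes (TILs). NK cells were barcodes with at least 1 unique molecular identifier (UMI, 1 counted transcript) of *Ncr1*, at least 1 of *Gzmb*, and 0 of *Cd3e* and *Cd8b1*. CD8 T cells held at least 2 UMIs of *Cd3e*, at least 1 each of *Cd8a*, *Cd8b1* and *Gzmb*, and 0 of *Cd4*, *Ncr1* and *Klrb1c*. Together these gates took 13969 of 31943 cells that passed quality control (1000 to 6000 genes, under 7.5% mitochondrial UMIs): 6509 NK cells and 7460 CD8 T cells. All cells came from subcutaneous colon tumors, labelled MC38-Ova (the paper's account of its single cells names MC38), in wild-type C57BL/6 Kaede mice. In these mice violet light turns a green protein red. Each mouse received 250000 tumor cells, tumors were photoconverted on day 13 and taken on day 15, and the labels of all 3 libraries name isotype control treatment. KG+ cells, which entered the tumor in the 48 h after photoconversion, made 2 libraries labelled as biological replicates (Kaede-green 1 and Kaede-green 2). KR+ cells, already present at photoconversion, made 1 library (Kaede-red), so no test between the colors was made. The number of mice per library is not given in the sources used here.

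NK cells and CD8 T cells kill through the same granules, in which perforin opens a path for granzymes into the target cell. They differ in how they are set off. A CD8 T cell reads a peptide on MHC class I through the T cell receptor and its CD3 chains, which signal through Lck, Zap70 and Lat. An NK cell weighs many germline-encoded receptors, some activating, through adaptors such as DAP12 (*Tyrobp*) and the Fc receptor gamma chain (*Fcer1g*), and some inhibitory, such as many of the Ly49 receptors (*Klra* genes).

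The cells were thus selected on measured UMIs of 7 genes. Values are given in the order of the 2 green libraries by number, then the red one. The NK gate held 2233, 1857 and 2419 cells, and the CD8 T gate held 1649, 2509 and 3302. Depth differed between the gates and turned with color: the median NK cell held 6072, 7917 and 16690 UMIs and the median CD8 T cell 8605, 10061 and 13785. NK cells were thus the shallower group in both KG+ libraries and the deeper group among KR+ cells. UMIs were summed per library and gate, which gave 6 sums of 16798746 to 52742292 UMIs, and a gene's level is given as CPM, its UMIs scaled to a common total per sum. The libraries shared 20 to 36 cell barcodes pairwise. At the edge of the gate for *Gzmb*, 113, 72 and 97 NK cells held exactly 1 UMI of it, and 138, 42 and 109 otherwise gated cells held 0 and were left out. For CD8 T cells these numbers were 256, 232 and 289 inside and 431, 189 and 245 outside. At the other edge, 940, 701 and 452 NK cells held exactly 1 UMI of *Ncr1*, and 510, 1431 and 1198 cells with *Ncr1* and *Gzmb* were left out for a UMI of *Cd3e* or *Cd8b1*.

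The gating genes are described here without a test, since they chose the cells. *Ncr1* (NKp46) stood at 313, 269 and 252 CPM in NK cells, and *Klrb1c* (NK1.1), which the gate did not require of NK cells, at 381, 271 and 181 CPM. *Cd8a* stood at 685, 767 and 909.6 CPM in CD8 T cells and 5.42, 21.3 and 7.01 CPM in NK cells. *Gzmb* itself was at 5282, 4419.8 and 4194 CPM in NK cells and 2146, 1992 and 3712 CPM in CD8 T cells. In the KG+ libraries its level in NK cells was more than 2-fold that in CD8 T cells, whereas among KR+ cells the log2 ratio was 0.18. A UMI of *Gzmb* is a weak sign of expression in these droplets: 33.5 and 55% of B cells in the KG+ libraries also held at least 1, at median depths of 4014 and 4840 UMIs, and only 7 B cells were gated in Kaede-red.

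RNA of other cells was measured in both gates. CD4 T cells were gated by at least 2 UMIs of *Cd3e* and 1 of *Cd4*, with 0 of *Cd8a*, *Cd8b1*, *Ncr1* and *Klrb1c*. That gate did not ask for *Gzmb*, which 61.8, 87.7 and 89.6% of its cells held, so CD4 and CD8 T cells were not selected alike. With each cell thinned to 2000 UMIs, a UMI of *Cd3d* was found in 4.48, 8.99 and 4.26% of NK cells and in 4 and 8% of KG+ B cells, which do not make it. For *Cd3d* the share in KG+ NK cells was thus at about the background level. Unthinned, the shares were 12.4, 30.8 and 23.5% of NK cells and 7.5 and 23% of B cells. *Cd3g* was at 13.8 and 40.8 CPM in KG+ NK cells and 12 and 42.6 CPM in KG+ B cells. Other chains lay above B cells: *Trac* at 44.5 and 54.9 against 19.6 and 37.7 CPM, *Trbc1* at 643 and 640 against 59.8 and 144 CPM. *Trbc2* was at 293 and 302 against 62 and 88.4 CPM. A UMI of *Cd3d*, *Cd3g* or *Trac* was held by 854, 1213 and 1323 unthinned NK cells. In the other direction, a UMI of *Fcer1g* was found in 7.04, 13.8 and 9.87% of thinned CD8 T cells against 12 and 23% of KG+ B cells. CD4 T cells thinned likewise gave 6.88, 12.5 and 7.61%. Kaede-green 2 had the higher share of the KG+ libraries in each of these cases. It also held macrophage transcripts in its NK gate: the complement gene *C1qa* was at 0.417, 28 and 0.866 CPM and *C1qb* at 0.476, 31.7 and 0.628 CPM in NK cells, against 0.0542, 2.41 and 0.36 and 0.325, 3.53 and 0.303 CPM in CD8 T cells. Of 8 myeloid markers, 7 could be tested and 4 were higher in NK cells (all genes tested 14.1%). Among them was *Itgax* (41.9, 39.6 and 40.2 CPM), which many NK cells express themselves. The summed level of the 8 was 107, 246 and 57.6 CPM in NK cells and 76.1, 88 and 10.4 CPM in CD8 T cells, and the macrophage marker *Adgre1* was under 1 CPM in all 6 sums. Without Kaede-green 2, *C1qa* and *C1qb* did not pass (adjusted p of 0.0722 and 0.246). None of 5 B cell markers passed the test (all genes tested 29.6% in either direction), and their summed level was 0.866 to 14.6 CPM. Markers of regulatory and CD4 T cells summed to 42, 34.6 and 87.1 CPM in CD8 T cells. Most of this was a single gene, *Il1r2*, at 30.9, 21.2 and 76.7 CPM there and 116, 89.7 and 135 CPM in CD4 T cells. The part of these cells in the results below was not tested, except where values without them are given.

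Of 12918 genes tested with the library as a block, 1818 (14.1%) were higher in NK cells and 2004 (15.5%) were higher in CD8 T cells at an adjusted p under 0.05 (edgeR's quasi-likelihood test). At least 2-fold changes made up 856 genes (6.63%) for NK cells and 1080 (8.36%) for CD8 T cells, and the median difference over all genes was 0.02 on the log2 scale. Differences are given as log2 of NK over CD8 T, so that negative values are higher in CD8 T cells. Single libraries moved these totals: 1024 and 1297 genes passed without Kaede-green 2, and 2706 and 2763 without Kaede-red. Of the 1936 genes with 2-fold changes, 1760 of the 1811 that could be tested kept call and direction when cells were matched for depth. When NK cells with a UMI of *Cd3d*, *Cd3g* or *Trac* were left out, 1677 of 1811 did. Over all 12918 genes tested, 7744 had the same direction in all 3 libraries, so that agreement alone is common.

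The receptors of NK cells were among the largest differences toward NK cells. The gates asked for *Ncr1* in NK cells and barred CD8 T cells with *Ncr1* or *Klrb1c*. Higher levels of such receptors in NK cells thus follow in part from the choice of cells. Of 28 lectin-like and immunoglobulin-like receptor genes tested, 20 were higher in NK cells (all genes tested 14.1%) and 3 in CD8 T cells (all genes tested 15.5%). The other 5 did not pass the test, and the median of the list was 1.82. *Klra4*, which encodes the activating receptor Ly49D, was at 480.4, 377 and 284 CPM in NK cells and 4.39, 8.22 and 2.54 CPM in CD8 T cells (log2 difference 6.39 ± 0.32 (SE), adjusted p = 0.000209), the largest difference among the genes named by the rule for NK cells. *Klra8*, the gene of the Ly49H receptor for a cytomegalovirus protein, was at 403, 306 and 232 CPM in NK cells and 3.42, 9.04 and 3.07 CPM in CD8 T cells. *Klra9* (Ly49I, log2 difference 5.66), *Klrb1f* (6.00) and *Klrb1a* (5.90) followed. None of the values of these 5 genes overlapped between the groups. They were named for the largest differences with the same direction in all libraries, so this follows largely from the choice of genes. The share of all genes without overlap was not computed. *Klra* and *Klrb1* genes have near-identical neighbors, so that reads may have been split between them, and their separate values are uncertain to that extent. The low-affinity Fc receptor gene *Fcgr3* (CD16), which triggers killing of antibody-coated cells, was at 38, 30 and 33.3 CPM in NK cells and 0.814, 0.907 and 0.626 CPM in CD8 T cells (log2 difference 5.52 ± 0.18 (SE), adjusted p = 8.87e-05).

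Receptors that activated CD8 T cells also use did not follow that pattern. *Klrd1*, which encodes the CD94 chain, was at 1127, 869 and 1243 CPM in NK cells and 862, 854 and 1282 CPM in CD8 T cells, and the interval of its difference ran from -0.06 to 0.44 (adjusted p = 0.225). Without Kaede-red NK cells were higher by 0.23 (adjusted p = 0.0339). *Klrc1*, whose product NKG2A is the inhibitory partner of CD94, was higher in CD8 T cells, with 322, 371 and 411 CPM in CD8 T cells and 211, 218 and 186 CPM in NK cells (log2 difference -0.77 ± 0.10 (SE), adjusted p = 0.00362). *Klrk1* (NKG2D), a receptor for stress ligands, was at 671, 572 and 509 CPM in NK cells and 344, 399 and 441 CPM in CD8 T cells (log2 difference 0.63 ± 0.13 (SE), adjusted p = 0.0173, 0.0696 without Kaede-green 1 and 0.0714 without Kaede-green 2). *Cd226* (DNAM-1), which binds nectin-like ligands, was also higher in CD8 T cells (log2 difference -1.24 ± 0.08 (SE)). *Klrc2* stood at 118, 99.4 and 63.6 CPM in NK cells and 63.2, 88.3 and 74.9 CPM in CD8 T cells and did not pass the test, although without Kaede-red NK cells were higher by 0.55 (adjusted p = 0.00165). The CD8 T gate barred cells with *Ncr1* or *Klrb1c*, so CD8 T cells with NK receptors are under-represented in it.

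Adaptors that carry these receptors' signals differed too. *Tyrobp* was at 2383, 2132 and 1974 CPM in NK cells and 40.2, 66.2 and 21.1 CPM in CD8 T cells (log2 difference 5.88 ± 0.36 (SE), adjusted p = 0.000336). *Fcer1g* was at 3181, 2667 and 2366 CPM in NK cells and 61.7, 89.7 and 78.6 CPM in CD8 T cells (log2 difference 5.23 ± 0.19 (SE), adjusted p = 0.000109). Their levels in NK cells were at least 20-fold those in CD8 T cells in every library. *Sh2d1b1* (EAT-2), an adaptor of SLAM family receptors, was at 60.8, 48.9 and 42.6 CPM in NK cells and 1.03, 1.22 and 1.4 CPM in CD8 T cells. Of 16 NK adaptor and kinase genes, 10 were higher in NK cells (all genes 14.1%) and 1 in CD8 T cells (all genes 15.5%). The other 5 did not pass the test, and the median of the list was 1.06. *Hcst*, which encodes the NKG2D adaptor DAP10, did not pass, with 556, 473 and 330.2 CPM in NK cells and 617, 579.7 and 577 CPM in CD8 T cells (log2 difference -0.35 ± 0.12 (SE), adjusted p = 0.0785). The call for *Hcst* turned with the processing. It passed in 5 of 16 alternatives, and the log2 difference ran from -0.51 without cycling cells (adjusted p = 0.0125) to -0.20 without Kaede-red (0.0292). In depth-matched cells *Hcst* differed by -0.46 (adjusted p = 0.0021).

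On the side of CD8 T cells, 12 genes of the T cell receptor complex and its coreceptors were tested. Of these, 1 was higher in NK cells (all genes 14.1%), 10 were higher in CD8 T cells (all genes 15.5%) and 1 did not pass the test (median -2.27). *Cd3e* was part of the gate, so a difference in its partners follows from the choice of cells. *Cd3g* was at 918, 1447 and 1336 CPM in CD8 T cells and 13.8, 40.8 and 21.2 CPM in NK cells (log2 difference -5.65 ± 0.22 (SE)). *Cd3d* was at 1139, 1189 and 1366 CPM in CD8 T cells and 24.2, 45.9 and 21.1 CPM in NK cells (log2 difference -5.36 ± 0.27 (SE)). *Trac*, the alpha chain constant region, was at 749.5, 717 and 766 CPM in CD8 T cells and 44.5, 54.9 and 24 CPM in NK cells (log2 difference -4.19 ± 0.25 (SE)). The values in NK cells were highest in Kaede-green 2 for all 3 genes. *Cd6*, a modulator of T cell receptor signals, had a log2 difference of -5.20 ± 0.31 (SE). The 2 beta chain constant region genes came apart. *Trbc2* was at 1933, 1784 and 1887 CPM in CD8 T cells and 293, 302 and 248 CPM in NK cells (log2 difference -2.67 ± 0.10 (SE)), whereas *Trbc1* reached 643, 640.4 and 522 CPM in NK cells against 887, 1043 and 831 CPM in CD8 T cells (log2 difference -0.55 ± 0.09 (SE), adjusted p = 0.0073, 0.141 without Kaede-green 2). These 2 genes are nearly identical in sequence, and 3' reads may not be split correctly between them. *Trdc*, the delta chain constant region, was the only gene of the list that was higher in NK cells, at 110.4, 97.6 and 47.6 CPM in NK cells and 25.7, 10.5 and 10.7 CPM in CD8 T cells (log2 difference 2.55 ± 0.23 (SE), adjusted p = 0.00108). *Tcrg-C2*, a gamma chain constant region, was higher in CD8 T cells, at 40, 43.8 and 84.4 CPM in CD8 T cells and 0.595, 1.56 and 0.844 CPM in NK cells (log2 difference -5.83 ± 0.32 (SE)). *Cd247*, the zeta chain that CD3 and several NK receptors share, stood at 76.4, 58.2 and 30 CPM in NK cells and 94, 87.2 and 92.9 CPM in CD8 T cells and narrowly missed the threshold (log2 difference -0.77 ± 0.23 (SE), adjusted p = 0.0522). *Cd247* passed in 9 of 16 alternatives, with log2 differences from -1.02 without Kaede-green 1 (adjusted p = 0.018) to -0.42 without Kaede-red (0.00043) over the 16. With DESeq2 its adjusted p was 0.0033 and in depth-matched cells 0.0081.

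The promoters of the Fc receptor gamma chain and of 2 CD3 chains are shown because these genes were among the largest differences in each direction and serve as signaling partners of the receptors. *Cd3g* (chr9:44969572-44980431, minus strand) and *Cd3d* (chr9:44981786-44987339, plus strand) are neighbors read in opposite directions, with starts 1355 bases apart, and *Fcer1g* lies at chr1:171229572-171234365 (minus strand). Each line holds the 250 bases before the start in RefSeq, build GRCm38.p6, 5' to 3' on the gene's strand: chr1:171234350-171234599 (minus strand), chr9:44980432-44980681 (minus strand) and chr9:44981536-44981785 (plus strand). Capitals mark matches, on either strand, to a RUNX motif (TGTGGT), a T-box motif (GGTGTGA), an ETS motif (AGGAAG) or an AP-1 motif (TGANTCA).
Fcer1g: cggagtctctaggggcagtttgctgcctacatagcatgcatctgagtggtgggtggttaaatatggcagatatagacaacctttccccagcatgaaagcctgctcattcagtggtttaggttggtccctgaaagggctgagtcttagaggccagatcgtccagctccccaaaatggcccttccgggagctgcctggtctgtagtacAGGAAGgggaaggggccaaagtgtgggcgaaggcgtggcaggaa
Cd3g: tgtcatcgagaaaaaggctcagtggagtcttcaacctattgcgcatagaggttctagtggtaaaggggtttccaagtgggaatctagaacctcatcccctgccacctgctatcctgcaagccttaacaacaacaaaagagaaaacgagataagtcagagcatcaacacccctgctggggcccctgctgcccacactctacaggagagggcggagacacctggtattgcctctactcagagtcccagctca
Cd3d: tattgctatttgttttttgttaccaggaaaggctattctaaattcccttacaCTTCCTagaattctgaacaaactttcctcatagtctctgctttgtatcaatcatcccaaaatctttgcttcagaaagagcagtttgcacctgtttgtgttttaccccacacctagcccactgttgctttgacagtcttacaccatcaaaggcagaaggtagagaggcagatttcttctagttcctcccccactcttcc
The *Fcer1g* window held an ETS match that begins 44 bases before the start, the *Cd3d* window held an ETS match at 198 bases, and the *Cd3g* window held none of the 4 sets of letters. ETS letters are common: 29.2% of 27025 promoters of the same length held them. The share was 33.2% among the 605 promoters found for genes at least 2-fold higher in NK cells and 29.8% among 759 for CD8 T cells, against 28.4% among 9733 genes tested. For RUNX letters these shares were 13.6%, 14.1% and 11.4%, and for T-box letters 3.31%, 3.69% and 2.79%. Letters of AP-1 were in 7.11% of promoters for NK cells, 5.27% for CD8 T cells and 4.22% for genes tested. A match is a description of the sequence only.

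Downstream of the receptors, the kinases, phospholipases and scaffolds were unequal too. *Syk*, the tyrosine kinase recruited by DAP12 and the Fc receptor gamma chain, was at 26.5, 25.3 and 8.64 CPM in NK cells and 1.46, 2.81 and 0.246 CPM in CD8 T cells (log2 difference 4.00 ± 0.35 (SE), adjusted p = 0.000992). Its T cell relative *Zap70* was at 122, 127 and 139 CPM in CD8 T cells and 71.3, 66.9 and 65.5 CPM in NK cells (log2 difference -0.86 ± 0.08 (SE), adjusted p = 0.00103), so *Zap70* was the less unequal of the pair. *Plcg2* was at 20.7, 20.8 and 19 CPM in NK cells and 2.33, 2.66 and 2.43 CPM in CD8 T cells (log2 difference 3.09 ± 0.11 (SE), adjusted p = 0.000109). *Plcg1* was at 33.3, 35 and 29.5 CPM in CD8 T cells and 0.714, 4.19 and 0.887 CPM in NK cells (log2 difference -4.24 ± 0.44 (SE), adjusted p = 0.00166). These phospholipase C gamma genes thus lay on opposite sides. *Lat*, the membrane scaffold of T cell receptor signals, was at 298, 241 and 238 CPM in CD8 T cells and 34.9, 34.6 and 27.8 CPM in NK cells (log2 difference -2.93 ± 0.10 (SE), adjusted p = 8.87e-05). *Themis*, which tunes those signals, was at 73.4, 71.2 and 65.6 CPM in CD8 T cells and 0.417, 2.15 and 0.519 CPM in NK cells (log2 difference -6.18 ± 0.39 (SE), adjusted p = 0.00037). *Txk*, a Tec family kinase, was among the 3 signaling genes higher in NK cells, with 767, 736 and 444 CPM in NK cells and 139, 124 and 88 CPM in CD8 T cells (log2 difference 2.52 ± 0.08 (SE), adjusted p = 8.87e-05). Of 18 signaling genes, 3 were higher in NK cells (all genes 14.1%) and 9 in CD8 T cells (all genes 15.5%). The other 6 did not pass the test, and the median of the list was -0.39. *Lck* was higher in CD8 T cells by a small margin (log2 difference -0.66 ± 0.08 (SE)), and *Fyn* and *Skap1* differed by 0.04 and 0.01 with adjusted p of 0.824 and 0.93.

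**Figure D1:**
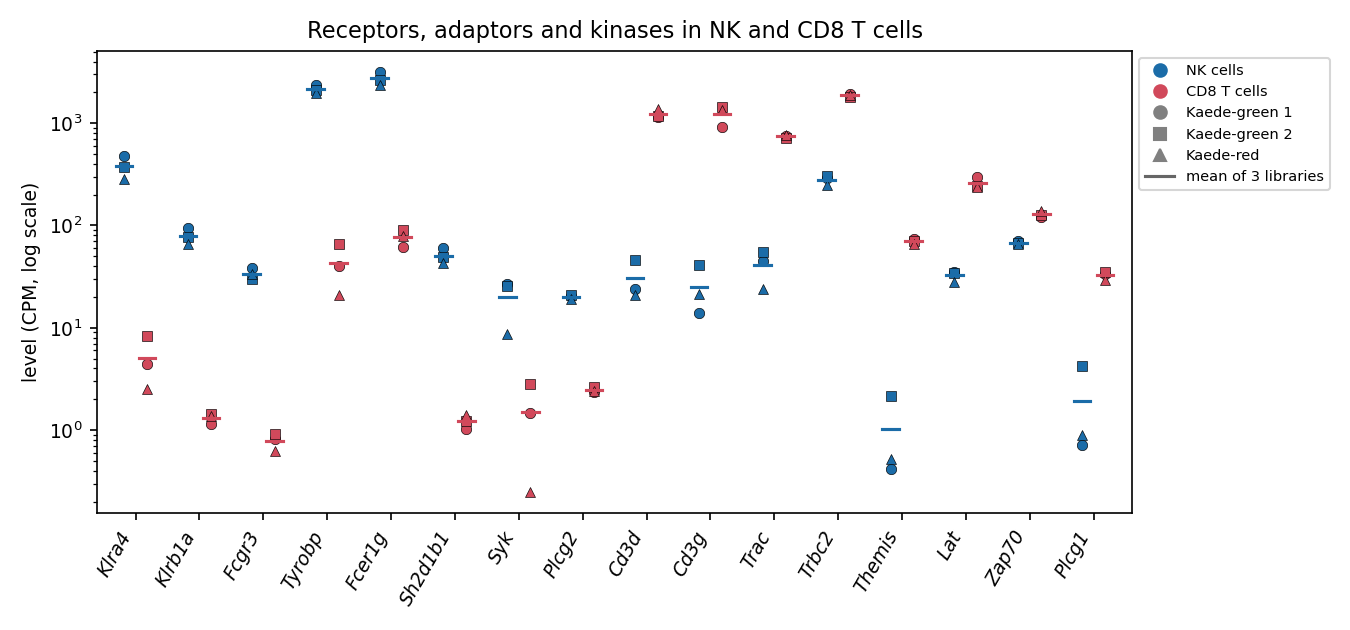
Levels (CPM, log scale) of 16 receptor, adaptor and kinase genes in NK cells (blue) and CD8 T cells (red). Each point is the sum of 1 library (circle Kaede-green 1, square Kaede-green 2, triangle Kaede-red), and bars are means of 3 libraries. The groups do not overlap for any of these genes, of which many were named for their large differences. The share of all genes tested without overlap was not computed. The *Syk* value of KR+ NK cells, 8.64 CPM, lies below those of KG+ NK cells.

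Granule genes did not all lie on the same side. Of 24 granzyme and granule protein genes, 9 were higher in NK cells (all genes 14.1%) and 3 in CD8 T cells (all genes 15.5%). The other 12 did not pass the test, and the median of the list was 0.31. *Gzma*, a tryptase, was at 9860.1, 7700.2 and 3355 CPM in NK cells and 712, 792 and 248 CPM in CD8 T cells (log2 difference 3.68 ± 0.16 (SE), adjusted p = 0.000145), and its level was lowest among KR+ cells in both groups. KG+ B cells held 433 and 277 CPM of *Gzma*. The part of RNA from other cells in the CD8 T level was not tested. *Gzmk*, a close relative of *Gzma* that marks memory-like CD8 T cells, was at 113, 93.7 and 51.4 CPM in CD8 T cells and 8.57, 7.62 and 1.49 CPM in NK cells (log2 difference -4.03 ± 0.27 (SE), adjusted p = 0.000459). *Gzmc* was at 3139, 4863 and 16578 CPM in NK cells and 428, 392 and 1531 CPM in CD8 T cells (log2 difference 3.38 ± 0.19 (SE), adjusted p = 0.000279), and its values were highest among KR+ cells in both groups. *Gzmf*, 23239 bases away in the same cluster, was at 721, 649 and 4008 CPM in CD8 T cells and 54.8, 213 and 1166 CPM in NK cells (log2 difference -2.26 ± 0.45 (SE), adjusted p = 0.0149). The groups overlapped for *Gzmf*, since the KR+ value of NK cells exceeded both KG+ values of CD8 T cells, yet CD8 T cells were higher within each library. Without possible doublets (cells defined with *Gzmd* below) *Gzmf* was at 8.33 and 63.3 CPM in KG+ NK cells, and the log2 difference was -3.38. *Prf1*, which encodes perforin, was at 796, 718 and 808 CPM in NK cells and 268, 336 and 714 CPM in CD8 T cells (log2 difference 1.01 ± 0.23 (SE), adjusted p = 0.0239). The log2 ratios within the libraries were 1.57, 1.09 and 0.18, and without Kaede-green 1 or Kaede-green 2 the adjusted p was 0.0546 or 0.0678. *Nkg7* and *Cst7*, of the granule membrane and the control of cathepsins, differed by 0.08 and 0.05 with adjusted p of 0.724 and 0.696. Without Kaede-red *Nkg7* was higher in NK cells by 0.27 (adjusted p = 0.0125). *Serpinb9*, which protects killer cells from their own granzyme B, was at 1007, 859 and 625 CPM in NK cells and 293, 363 and 409 CPM in CD8 T cells (log2 difference 1.28 ± 0.19 (SE), adjusted p = 0.00608).

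The promoters of *Gzmc* and *Gzmf* are shown because these neighbors in 1 gene cluster differed in opposite directions. *Gzmc* lies at chr14:56231441-56234656 and *Gzmf* at chr14:56205263-56211417, both on the minus strand. The lines hold chr14:56234658-56234907 and chr14:56211408-56211657 of GRCm38.p6 (RefSeq), the 250 bases before each start, with capitals as above.
Gzmc: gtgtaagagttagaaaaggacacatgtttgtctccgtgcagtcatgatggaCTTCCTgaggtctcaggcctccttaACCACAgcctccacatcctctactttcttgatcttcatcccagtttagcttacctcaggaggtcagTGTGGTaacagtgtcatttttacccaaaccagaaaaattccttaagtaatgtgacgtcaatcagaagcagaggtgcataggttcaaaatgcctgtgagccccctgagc
Gzmf: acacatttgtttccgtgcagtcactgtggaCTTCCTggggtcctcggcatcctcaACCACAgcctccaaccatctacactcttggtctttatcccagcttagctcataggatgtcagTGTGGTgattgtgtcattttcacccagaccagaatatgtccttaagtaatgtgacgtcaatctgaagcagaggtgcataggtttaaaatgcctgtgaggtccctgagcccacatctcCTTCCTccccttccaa
Aligned over their length, these windows were identical at 198 of 277 columns (71.5%). The identity was 81.3% between *Gzmc* and *Gzmd* of the same cluster and 49.2% between *Fcer1g* and *Gzmc*. Each held 2 RUNX matches and an ETS match in the same order, from 199 to 108 bases before the start in *Gzmc* and from 220 to 133 in *Gzmf*, where another ETS match lay at 16 bases. These windows thus shared RUNX and ETS letters, while the ETS match nearest the start was in *Gzmf* only. Whether any of these letters bears on the opposite directions of the genes was not tested. The transcripts of this cluster are similar as well, so their UMIs may have been shared among copies.

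*Gzmd*, *Gzme* and *Gzmg* of the same cluster depended on the cells with the most UMIs or with B cell or myeloid UMIs. These cells are called possible doublets here, and whether they were doublets was not tested. *Gzmd* was at 96.9, 259 and 1539 CPM in NK cells and 77.9, 93.9 and 441 CPM in CD8 T cells (log2 difference 1.28 ± 0.31 (SE), adjusted p = 0.0276), with groups that overlapped and an adjusted p of 0.068 without Kaede-green 2. One alternative left out the 5% of each gate's cells with the most UMIs and cells with B cell or myeloid UMIs, which kept 2079, 1621 and 2251 NK cells. Its level in NK cells was then 2.12, 42.2 and 1063 CPM against 62.6, 60.1 and 362 CPM in CD8 T cells, and the log2 difference became -0.70 (adjusted p = 0.708). Most *Gzmd* UMIs of KG+ NK cells thus came from the cells left out. *Gzme* (35.7, 121 and 703 CPM in NK cells and 81.4, 85.6 and 334 CPM in CD8 T cells, adjusted p = 0.724) and *Gzmg* (3.27, 53.7 and 205 CPM in NK cells and 5.04, 13.4 and 45.9 CPM in CD8 T cells, adjusted p = 0.0594) did not pass the test with all libraries. They passed without Kaede-green 1 (adjusted p of 0.0191 and 0.000163), *Gzmg* also without Kaede-red (0.00231). *Gzmg* passed toward NK cells in thinned cells too (log2 difference 1.43, adjusted p = 0.0167). It also passed without cycling cells (0.0114), without the *Gzmb* condition (0.0414) and with no filter on low counts (0.00244). Without the possible doublets the log2 differences of *Gzme* and *Gzmg* became -1.40 and -0.35 (adjusted p of 0.409 and 0.815). In Kaede-red NK cells then stayed higher, at 499 against 273 CPM for *Gzme* and 93.8 against 41.6 CPM for *Gzmg*. *Gzmc* in KG+ NK cells was then at 1039.5 and 2619 CPM but stayed above CD8 T cells in each library.

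**Figure D2:**
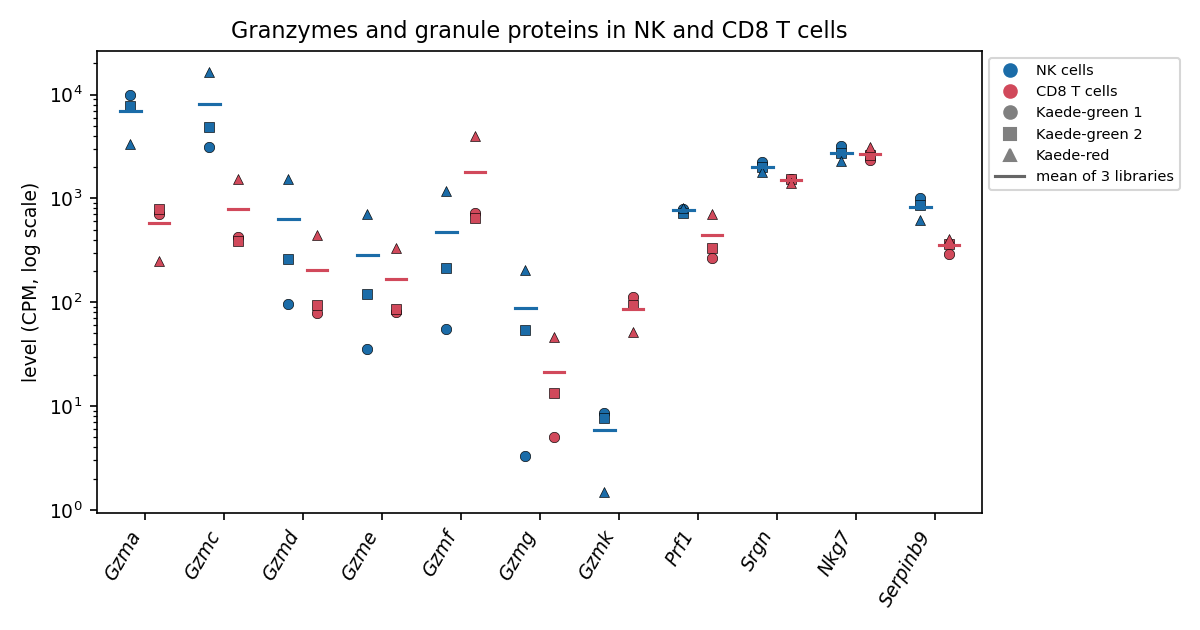
Levels (CPM, log scale) of 11 granzyme and granule genes in NK cells (blue) and CD8 T cells (red), with 1 point for each library's sum (circle Kaede-green 1, square Kaede-green 2, triangle Kaede-red) and bars at the mean of 3 libraries. *Gzma* and *Gzmc* are higher in NK cells in all libraries, *Gzmk* and *Gzmf* in CD8 T cells, and the KR+ triangle lies highest for *Gzmc* and lowest for *Gzma* in both groups.

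Transcription factors of the killer lineages were shared in part. *Eomes*, a T-box factor of NK cells and memory T cells, was at 225, 194 and 91.2 CPM in NK cells and 27.7, 23.4 and 10.4 CPM in CD8 T cells (log2 difference 3.14 ± 0.09 (SE), adjusted p = 8.87e-05), and its level was lowest among KR+ cells in both groups. A UMI of *Eomes* was found in 65.7, 66.6 and 63.8% of NK cells and 18.2, 19 and 11.4% of CD8 T cells, and in 36.5, 33.1 and 17.4% and 6.92, 4.3 and 2.63% after thinning, when KG+ B cells gave 1 and 3%. *Tbx21* (T-bet), the other T-box factor, stood at 82.9, 73 and 68.2 CPM in NK cells and 52.1, 46.4 and 67.1 CPM in CD8 T cells. It was higher in NK cells by a log2 difference of 0.51 ± 0.12 (SE) (adjusted p = 0.0276), which became 0.108 without Kaede-green 1 and 0.157 without Kaede-green 2. *Runx1* (log2 difference 2.53 ± 0.14 (SE), adjusted p = 0.000247), *Runx3* (log2 difference 0.92 ± 0.16 (SE), adjusted p = 0.00899), *Irf8* (log2 difference 1.65 ± 0.24 (SE), adjusted p = 0.00538) and the aryl hydrocarbon receptor gene *Ahr* (log2 difference 1.95 ± 0.11 (SE)) were also higher in NK cells. Within the libraries the log2 ratios were 1.13, 1.12 and 0.31 for *Runx3* and 2.27, 1.64 and 0.84 for *Irf8*, lowest in Kaede-red for both. Higher in CD8 T cells were *Bcl11b*, which holds cells in the T lineage, at 93.4, 82.5 and 65.3 CPM in CD8 T cells and 3.1, 5.1 and 1.23 CPM in NK cells (log2 difference -4.78 ± 0.30 (SE), adjusted p = 0.000357), and *Irf4*, induced by T cell receptor signals (log2 difference -3.87 ± 0.29 (SE), adjusted p = 0.000636). *Tox*, which is linked to T cell exhaustion, was at 56.8, 47.8 and 52.5 CPM in CD8 T cells and 19.5, 17.7 and 12.1 CPM in NK cells (log2 difference -1.64 ± 0.13 (SE), adjusted p = 0.000737). *Tcf7* (TCF-1) was at 53.6, 58.1 and 40.3 CPM in NK cells and 53.7, 41.9 and 17.3 CPM in CD8 T cells (adjusted p = 0.116, 0.0213 without Kaede-green 1 and 0.0395 without Kaede-red, with NK cells the higher group). *Ikzf1* and *Zeb1* differed by 0.00 and 0.08, with adjusted p of 0.986 and 0.6. Of 37 factors, 11 were higher in NK cells (all genes 14.1%) and 9 in CD8 T cells (all genes 15.5%). The other 17 did not pass the test, and the median of the list was 0.12.

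Inhibitory checkpoint receptors were mostly higher in CD8 T cells. Of 16 genes tested, 3 were higher in NK cells (all genes 14.1%) and 10 in CD8 T cells (all genes 15.5%). The other 3 did not pass the test, and the median of the list was -1.64. *Pdcd1* (PD-1) was at 405, 353 and 559 CPM in CD8 T cells and 4.29, 13.6 and 17.2 CPM in NK cells (log2 difference -5.25 ± 0.39 (SE), adjusted p = 0.000587). The NK values were under 20 CPM in all 3 libraries. *Havcr2* (TIM-3) was at 47.6, 68.4 and 95.6 CPM in CD8 T cells and 1.31, 4.03 and 2.58 CPM in NK cells (log2 difference -4.72 ± 0.23 (SE), adjusted p = 0.000203), and *Lag3* at 326, 349.8 and 533 CPM in CD8 T cells and 27.8, 31.8 and 52 CPM in NK cells (log2 difference -3.39 ± 0.10 (SE), adjusted p = 8.87e-05). *Ctla4*, the competitor of CD28, was at 219, 198 and 310.4 CPM in CD8 T cells and 30.1, 42.8 and 48.6 CPM in NK cells (log2 difference -2.51 ± 0.14 (SE), adjusted p = 0.000276). KG+ B cells held 29.3 and 26.2 CPM of *Ctla4*. For *Lag3* the log2 ratios within the libraries were close to each other, at -3.55, -3.46 and -3.36. After thinning, a UMI of *Pdcd1* was found in 44.6, 43.7 and 61.4% of CD8 T cells and 0.896, 1.99 and 2.56% of NK cells, and unthinned in 65.6, 74.4 and 90.5% and 2.33, 7.86 and 10.8%. Among thinned KG+ B cells it was found in 0 of 200, which allows a share of up to 1.5%, and in 4% of 100. The shares of KG+ NK cells lay within this range of background. *Tigit* was low in both groups, at 7.92, 6.71 and 3.16 CPM in NK cells and 7.43, 7.72 and 8.66 CPM in CD8 T cells (adjusted p = 0.261). Higher in NK cells were *Cd72* (log2 difference 2.31 ± 0.20 (SE), adjusted p = 0.00103) and *Lilrb4a* (log2 difference 1.78 ± 0.09 (SE), adjusted p = 0.000197), inhibitory receptors known mainly from B cells and myeloid cells. So was *Lair1*, a receptor for collagens, at 8.27, 10.5 and 12.2 CPM in NK cells and 4.88, 5.07 and 3.2 CPM in CD8 T cells (log2 difference 1.35 ± 0.27 (SE), adjusted p = 0.0143).

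Costimulatory receptors of the TNF receptor family and CD28 family showed the same tilt. Of 12 genes, 2 were higher in NK cells (all genes 14.1%) and 6 in CD8 T cells (all genes 15.5%). The other 4 did not pass the test, and the median of the list was -0.50. *Tnfrsf4* (OX40) was at 217, 197 and 296 CPM in CD8 T cells and 15.5, 20.1 and 7.75 CPM in NK cells (log2 difference -4.05 ± 0.37 (SE), adjusted p = 0.00113). Its level in KG+ B cells was 14.1 and 24.6 CPM. *Icos* was at 262, 265 and 280.2 CPM in CD8 T cells and 76.9, 80.1 and 61.5 CPM in NK cells (log2 difference -1.83 ± 0.10 (SE), adjusted p = 0.00024). *Tnfrsf9* (4-1BB), which activated NK cells carry as well, was at 519.9, 476 and 639 CPM in NK cells and 451, 484 and 721 CPM in CD8 T cells (adjusted p = 0.609, interval of the difference -0.15 to 0.29). *Tnfrsf1a*, a receptor for TNF, was higher in NK cells (log2 difference 1.17 ± 0.19 (SE), adjusted p = 0.00788).

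**Figure D3:**
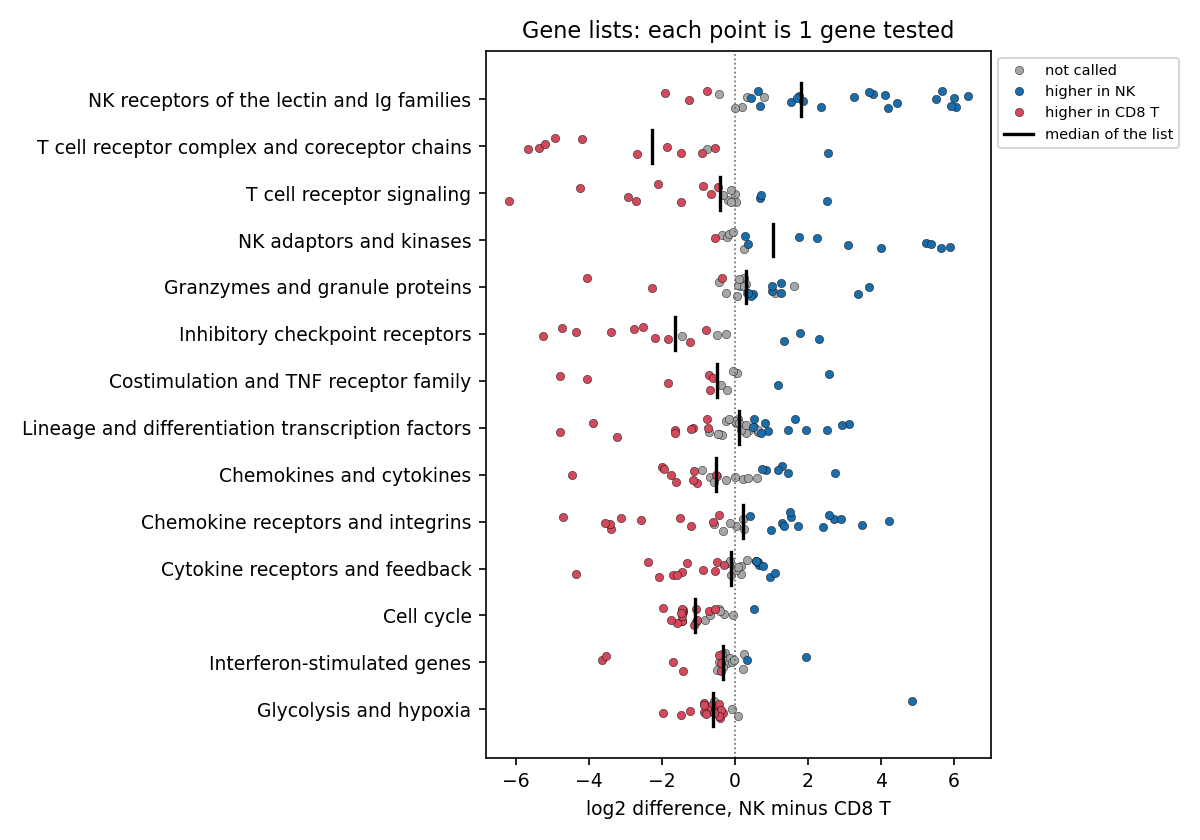
Log2 differences (NK minus CD8 T) of the genes tested in 14 lists, 1 point for each gene, colored by the test (blue higher in NK cells, red higher in CD8 T cells, gray not called), with a bar at each list's median. The medians run from -2.27 for the T cell receptor complex to 1.82 for NK receptors, and *Vegfa* is the single blue point of the glycolysis and hypoxia list.

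Secreted proteins divided the groups by gene. *Xcl1*, a chemokine that attracts cross-presenting dendritic cells, was at 1742, 2242 and 2097 CPM in NK cells and 359, 431 and 197 CPM in CD8 T cells (log2 difference 2.75 ± 0.27 (SE), adjusted p = 0.00146). *Cxcl10*, an attractant of CXCR3-bearing cells, was at 625, 678 and 332 CPM in NK cells and 308, 202 and 174 CPM in CD8 T cells (log2 difference 1.30 ± 0.17 (SE), adjusted p = 0.00341). *Spp1* (osteopontin) was higher in NK cells within each library (log2 difference 1.46 ± 0.19 (SE), adjusted p = 0.00335), although the groups overlapped, since the KR+ value was the highest of each (119, 173 and 753 CPM in NK cells and 38.2, 94.4 and 236 CPM in CD8 T cells). Gated CD4 T cells held *Spp1* at 22.7, 87.7 and 261 CPM and *Cxcl10* at 544, 317 and 260 CPM. The part of RNA from other cells in the levels of these 2 genes was not tested. *Tgfb1* was at 887, 727 and 580.0 CPM in NK cells and 309, 332 and 352 CPM in CD8 T cells (log2 difference 1.19 ± 0.14 (SE), adjusted p = 0.00247). Higher in CD8 T cells were *Csf1*, the growth factor of macrophages, at 36, 49 and 79.6 CPM in CD8 T cells and 2.38, 3.6 and 1.56 CPM in NK cells (log2 difference -4.46 ± 0.37 (SE), adjusted p = 0.000843). So were *Ccl1*, a ligand of CCR8, at 129, 237 and 108 CPM in CD8 T cells and 13.9, 54 and 54.2 CPM in NK cells (adjusted p = 0.0189), and *Tnfsf11* (RANKL, log2 difference -1.93 ± 0.38 (SE)). Of 24 chemokine and cytokine genes, 6 were higher in NK cells (all genes 14.1%) and 9 in CD8 T cells (all genes 15.5%). The other 9 did not pass the test, and the median of the list was -0.51.

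*Ccl5*, *Ccl4* and *Ifng* did not pass the test, and the libraries differed for each. *Ccl5* was at 6134, 4328 and 275 CPM in NK cells and 4676, 3699.8 and 1500.1 CPM in CD8 T cells, with log2 ratios of 0.39, 0.23 and -2.45 (fitted interval -1.87 to 0.89, adjusted p = 0.557). Without Kaede-red *Ccl5* was higher in NK cells by 0.33 (adjusted p = 0.00102). *Ccl4*, also a chemokine, was at 862, 798 and 106 CPM in NK cells and 421, 623 and 326 CPM in CD8 T cells, with log2 ratios of 1.03, 0.36 and -1.61 (adjusted p = 0.984, and 0.000119 without Kaede-red, when NK cells were higher by 0.72). *Ifng* was at 233, 262 and 69.5 CPM in NK cells and 256, 277 and 223 CPM in CD8 T cells, with log2 ratios of -0.13, -0.08 and -1.68 (adjusted p = 0.221). For all 3 genes the KR+ NK value was the lowest of the 6 sums. *Fasl*, a death ligand, was at 202, 175 and 92.4 CPM in NK cells and 122, 127 and 118 CPM in CD8 T cells, also with its lowest value in KR+ NK cells. Without Kaede-red it was higher in NK cells by 0.62 (adjusted p = 9.9e-06). With 1 KR+ library these differences between colors were not tested.

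**Figure D4:**
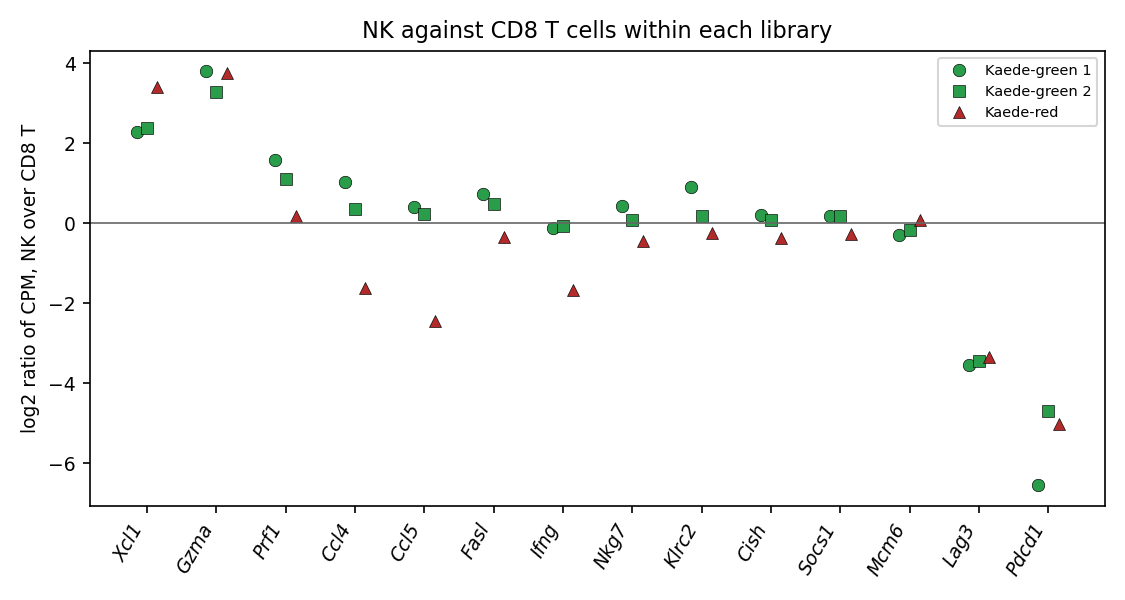
Log2 ratio of CPM, NK over CD8 T cells, within each library for 14 genes (green circle Kaede-green 1, green square Kaede-green 2, red triangle Kaede-red), with a line at 0. *Xcl1*, *Gzma*, *Lag3* and *Pdcd1* keep their side in all 3 libraries, whereas the triangle lies across the line from both green points for *Ccl4*, *Ccl5* and *Fasl*.

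Receptors for position in tissue went in both directions. Of 29 chemokine receptor, integrin and egress genes, 13 were higher in NK cells (all genes 14.1%) and 10 in CD8 T cells (all genes 15.5%). The other 6 did not pass the test, and the median of the list was 0.24. *Cxcr6*, which keeps T cells near CXCL16-bearing dendritic cells, was at 265, 311 and 364 CPM in CD8 T cells and 6.79, 17.7 and 11.6 CPM in NK cells (log2 difference -4.71 ± 0.24 (SE), adjusted p = 0.000209). *Ccr7*, a receptor for entry into lymph nodes, was at 297, 280.0 and 211 CPM in CD8 T cells and 29.6, 37.2 and 21.1 CPM in NK cells (log2 difference -3.12 ± 0.11 (SE), adjusted p = 0.000109). *Cx3cr1*, the fractalkine receptor, was at 54, 81.2 and 53.9 CPM in CD8 T cells and 5.54, 5.91 and 4.03 CPM in NK cells (log2 difference -3.54 ± 0.12 (SE), adjusted p = 8.87e-05). The CD8 T values of these 3 genes were above the NK values in every library. *Ccr2*, the receptor for CCL2, was higher in NK cells, at 219, 242 and 204 CPM in NK cells and 41.3, 52.3 and 20.4 CPM in CD8 T cells (log2 difference 2.71 ± 0.25 (SE), adjusted p = 0.00123). *Itga2* (CD49b), an integrin of circulating NK cells, was at 72.8, 46.2 and 15 CPM in NK cells and 4.18, 4.22 and 2.22 CPM in CD8 T cells (log2 difference 3.50 ± 0.23 (SE), adjusted p = 0.000411), with its lowest NK value among KR+ cells. *Itga1* (CD49a) was at 30.1, 32 and 68.3 CPM in NK cells and 27.2, 39.7 and 42.9 CPM in CD8 T cells, with its highest value in KR+ NK cells (adjusted p = 0.421). *Itgae* (CD103), which binds E-cadherin, was at 15.4, 13.1 and 6.14 CPM in CD8 T cells and 1.13, 1.45 and 2.1 CPM in NK cells (log2 difference -2.57 ± 0.44 (SE), adjusted p = 0.00899). *Cd69*, a retention and activation marker, was at 244, 201 and 132 CPM in NK cells and 257, 194 and 138 CPM in CD8 T cells (interval of the difference -0.15 to 0.23, adjusted p = 0.743), and *Cd44* had an adjusted p of 0.502.

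**Figure D5:**
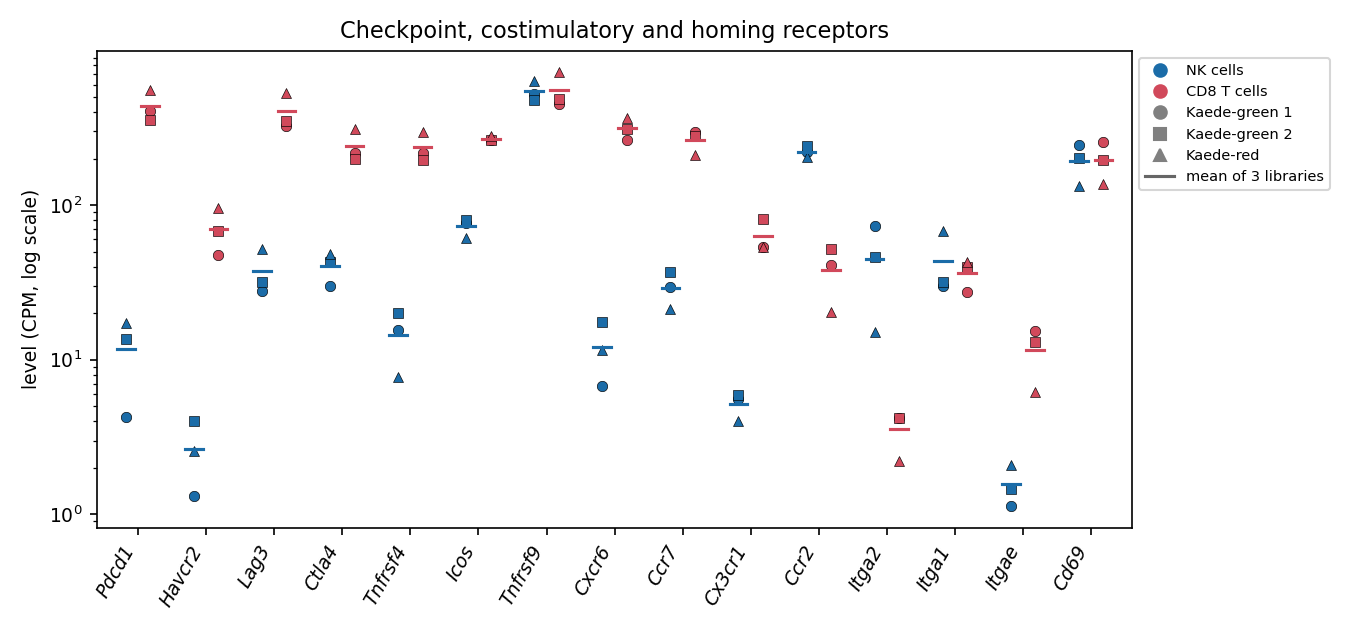
Levels (CPM, log scale) of 15 checkpoint, costimulatory and homing receptor genes in NK cells (blue) and CD8 T cells (red), with 1 point for each library's sum (circle Kaede-green 1, square Kaede-green 2, triangle Kaede-red) and bars at the mean of 3 libraries. From *Pdcd1* to *Icos* the CD8 T points lie above the NK points in every library, for *Ccr2* and *Itga2* the order is turned, and for *Tnfrsf9*, *Itga1* and *Cd69* the points overlap.

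Cytokine receptors separated the groups by the cytokine. *Il7r*, the receptor chain for the survival cytokine IL-7, was at 222, 237 and 262 CPM in CD8 T cells and 11.8, 18.6 and 6.65 CPM in NK cells (log2 difference -4.33 ± 0.30 (SE), adjusted p = 0.000508). Its level in KG+ B cells was 27.2 and 16.4 CPM. *Il21r* was at 193, 216 and 218 CPM in CD8 T cells and 47.7, 57 and 39.4 CPM in NK cells (log2 difference -2.07 ± 0.11 (SE), adjusted p = 0.000216). *Il2ra*, the high-affinity chain for IL-2, was at 78, 82.8 and 66.6 CPM in CD8 T cells and 24.9, 34.2 and 28.3 CPM in NK cells (log2 difference -1.31 ± 0.12 (SE), adjusted p = 0.00123). CD8 T cells were the higher group in every library for all 3 receptors. *Il2rb*, which IL-2 and IL-15 share, was higher in NK cells, at 1195, 1053 and 753 CPM in NK cells and 468, 529 and 589.9 CPM in CD8 T cells (log2 difference 0.97 ± 0.17 (SE), adjusted p = 0.00978). *Il12rb1* was higher in NK cells too (log2 difference 0.66 ± 0.09 (SE), adjusted p = 0.113 in thinned cells), whereas *Il18r1* stood at 142, 112 and 64.8 CPM in NK cells and 129, 119 and 109.9 CPM in CD8 T cells (adjusted p = 0.455). Of the feedback inhibitors, *Socs3* was higher in NK cells (log2 difference 1.11 ± 0.11 (SE)), and *Cish* and *Socs1* differed by 0.04 and 0.08 with adjusted p of 0.803 and 0.553 (0.0326 for *Socs1* without Kaede-red). Of 27 genes of this list, 7 were higher in NK cells (all genes 14.1%) and 11 in CD8 T cells (all genes 15.5%). The other 9 did not pass the test, and the median of the list was -0.09.

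Cell cycle genes were mostly higher in CD8 T cells, and their summed level was highest among KR+ cells in both groups. Of 24 genes, 1 was higher in NK cells (all genes 14.1%) and 16 in CD8 T cells (all genes 15.5%). The other 7 did not pass the test, and the median of the list was -1.10. *Mki67* was at 53.3, 79.3 and 120.1 CPM in CD8 T cells and 11.8, 30.3 and 60.4 CPM in NK cells (log2 difference -1.41 ± 0.24 (SE), adjusted p = 0.00886). *Top2a* was at 132, 189 and 269 CPM in CD8 T cells and 32.9, 71.5 and 130.2 CPM in NK cells (log2 difference -1.40 ± 0.21 (SE), adjusted p = 0.00529). The values of CD8 T cells were above those of NK cells within each library, and for *Mki67* the groups overlapped across libraries. Cells with a UMI of *Mki67* or *Top2a* numbered 269, 504 and 936 in the NK gate and 436, 1020 and 1627 in the CD8 T gate. With these cells left out, the numbers of genes higher in NK and in CD8 T cells were 1719 and 1726, and 23 of 1692 2-fold calls that could be tested turned to the other side. The histone gene *H2afz*, which many resting cells use as well, was the only gene of the list that was higher in NK cells (log2 difference 0.51 ± 0.08 (SE), with adjusted p of 0.0676 and 0.143 without Kaede-green 1 or Kaede-green 2).

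Glycolytic genes were also higher in CD8 T cells, by smaller amounts. Of 22 genes of glycolysis and the response to hypoxia, 1 was higher in NK cells (all genes 14.1%) and 18 in CD8 T cells (all genes 15.5%). The other 3 did not pass the test, and the median of the list was -0.59. *Slc2a3*, a glucose transporter, was at 38.4, 40.6 and 57.6 CPM in CD8 T cells and 11, 11.1 and 11.4 CPM in NK cells (log2 difference -1.95 ± 0.11 (SE), adjusted p = 0.00027). *Bnip3*, a mitophagy receptor induced by hypoxia, was at 39.7, 29.8 and 75.6 CPM in CD8 T cells and 12.4, 13.1 and 22.8 CPM in NK cells (log2 difference -1.47 ± 0.12 (SE), adjusted p = 0.000866), and *Slc16a3*, a lactate exporter, at 47, 44.5 and 66.8 CPM in CD8 T cells and 16.5, 22.6 and 25.4 CPM in NK cells (log2 difference -1.22 ± 0.12 (SE), adjusted p = 0.00144). *Gapdh* was at 2659, 2383 and 3889.5 CPM in CD8 T cells and 1401, 1374 and 2251 CPM in NK cells (log2 difference -0.77 ± 0.10 (SE), adjusted p = 0.00386, 0.0722 without Kaede-green 2). *Eno1* and *Pkm* lost their calls when either KG+ library was left out, with adjusted p from 0.152 to 0.256 and log2 differences from -0.27 to -0.42. In depth-matched cells these were -0.18 for *Eno1* (adjusted p = 0.206) and -0.26 for *Pkm* (0.0578). *Vegfa*, the main growth factor of blood vessels and a hypoxia target, went against its list, at 324, 306 and 166 CPM in NK cells and 7.27, 12 and 8.38 CPM in CD8 T cells (log2 difference 4.85 ± 0.22 (SE), adjusted p = 0.000158). The summed level of the list was 7014, 6266 and 9973 CPM in CD8 T cells and 4413, 4440.1 and 6366 CPM in NK cells. It was highest among KR+ cells in both.

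Of 20 interferon-stimulated genes, 2 were higher in NK cells, 7 were higher in CD8 T cells and 11 did not pass the test (median -0.33). Over all genes tested, 14.1% were higher in NK cells and 15.5% in CD8 T cells. *Ifi27l2a* was at 2525, 2711 and 2685 CPM in CD8 T cells and 158, 317 and 164 CPM in NK cells (log2 difference -3.64 ± 0.22 (SE), adjusted p = 0.000299). *Ifitm1*, which restricts virus entry, was at 1337, 1074 and 1891 CPM in CD8 T cells and 59.9, 101 and 242 CPM in NK cells (log2 difference -3.54 ± 0.33 (SE), adjusted p = 0.00123). *Ifit3* was higher in CD8 T cells by a log2 difference of -1.70 ± 0.11 (SE). In contrast, *Oasl1* was higher in NK cells, at 68.2, 51.6 and 25.2 CPM in NK cells and 19.6, 14.4 and 6.2 CPM in CD8 T cells (log2 difference 1.95 ± 0.10 (SE), adjusted p = 0.000234). *Rsad2* and *Ifitm3* differed by -0.06 and -0.01 with adjusted p of 0.708 and 0.962. The high levels of *Ifi27l2a* were not particular to CD8 T cells: gated CD4 T cells held 7315, 9772 and 11752 CPM, whereas *Ifitm1* stood at 72.8, 33.6 and 107 CPM in CD4 T cells.

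The remaining genes at the ends of the comparison have other roles. *Hes1*, a repressor that Notch signals induce, was at 154, 101 and 59.2 CPM in NK cells and 2.66, 3.03 and 1.5 CPM in CD8 T cells (log2 difference 5.44 ± 0.16 (SE), adjusted p = 8.87e-05), and stood at 1.8, 0.995 and 2.5 CPM in CD4 T cells. KG+ B cells held 77.2 and 83.5 CPM of *Hes1*, so a high level was not particular to NK cells. *Dapl1* had the largest difference among the genes named for CD8 T cells, at 60.4, 47.1 and 46.6 CPM in CD8 T cells and 0.238, 0.698 and 0.195 CPM in NK cells (log2 difference -7.14 ± 0.29 (SE), adjusted p = 0.000129). *Igfbp7*, a secreted binder of insulin-like growth factors, was at 45.9, 39.9 and 74.6 CPM in CD8 T cells and 0.476, 0.967 and 0.455 CPM in NK cells (log2 difference -6.47 ± 0.31 (SE)). *Gldc*, the glycine decarboxylase of the glycine cleavage system, was at 42.7, 35.1 and 79.2 CPM in CD8 T cells and 0.357, 1.56 and 0.693 CPM in NK cells (log2 difference -5.94 ± 0.43 (SE)). *Nrn1* (neuritin) was at 40.6, 42.9 and 68 CPM in CD8 T cells and 1.07, 1.23 and 0.541 CPM in NK cells (log2 difference -5.84 ± 0.33 (SE)). All 4 genes stayed under 2 CPM in NK cells. As a description over the gated CD4 T cells (523, 495 and 473 cells), the levels there were 10.3, 12.7 and 0.5 CPM for *Dapl1*, 5.84, 3.18 and 10.5 for *Igfbp7*, 3.14, 2.98 and 7.51 for *Gldc*, 19.1, 17.5 and 16 for *Nrn1* and 4.04, 3.58 and 5 for *Tcrg-C2*, all below the CD8 T value of the same library. *Bcl11b* (154, 139 and 144 CPM) and *Cd6* (264, 268 and 244 CPM) were higher in CD4 than in CD8 T cells in each library. *Pdcd1* (157, 123 and 169 CPM) and *Cxcr6* (165, 185 and 294 CPM) lay between NK and CD8 T cells.

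Genes of innate lymphoid cells were examined because the NK gate does not bar such cells. In the NK gate 321, 527 and 545 cells held a UMI of *Il7r* or *Rora*. Leaving them out gave 808 and 1143 genes with 2-fold changes. *Gata3* differed by 0.12 (adjusted p = 0.261), and *Tmem176b*, a marker of helper-like innate cells, was at 19.1, 25.5 and 28 CPM in NK cells and 4.99, 2.44 and 3.91 CPM in CD8 T cells (log2 difference 2.81 ± 0.28 (SE), adjusted p = 0.00143), a call that was lost without the cells with *Il7r* or *Rora* (log2 difference 0.79, adjusted p = 0.169). *Rora* itself was higher in CD8 T cells (log2 difference -1.64 ± 0.10 (SE), adjusted p = 0.000357).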

How the data were processed

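Single-cell RNA-seq of 3 libraries was used. The authors deposited counts of UMIs per gene and barcode, filtered by Cell Ranger and not normalized. The labels name build mm10 and Cell Ranger 6.1.2, whereas the file headers name version 6.0.1. The counts were used as deposited, 10498, 12327 and 11956 barcodes with 87193225, 129438292 and 175848894 UMIs, and 0 columns had no sample. Quality limits were those of the paper. UMIs were summed per library and gate, and the 6 sums tested with edgeR 4.0.16 in R 4.3.3 (quasi-likelihood, TMM factors, filter on low counts, library as block, Benjamini-Hochberg adjustment over all genes). Pairing comes from construction, since both sums of a pair are of 1 library. The 7 gating genes were left out of the tests. The p-values measure only the spread between these 3 libraries, and whether Kaede-red shares mice with a Kaede-green library is not given in the sources used here. In simulated sums for this comparison, 84% of 100 genes with 2-fold and 98.97% of 97 with 4-fold changes were recovered among 12883 genes, with 4 false calls. The simulation gave every gene the same dispersion and each changed gene the same fold in all 3 libraries. These rates thus do not hold for genes that vary more or differ between libraries. Shares carry counting error only. Thinning left out 2 CD8 T cells with under 2000 UMIs. No doublet caller was run.

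Members, lists and tests were chosen with earlier results of these data known. Named genes are the 10 largest called differences each way (at least 50 CPM in the higher group, the same direction in 3 libraries), a fixed list of receptors, granule genes and factors, and per gene list up to 3 called genes each way (at least 20 CPM) and up to 2 with the smallest difference (at least 50 CPM in both). *Trac*, *Trbc2*, *Plcg2*, *Ctla4*, *Serpinb9*, *Gzme*, *Gzmg*, *Fcgr3*, *Mki67*, *Top2a*, *Irf8*, *Tgfb1*, *Gapdh*, *Runx3*, *C1qa*, *C1qb*, *Adgre1* and *Lair1* were named after their values were seen. Some genes overlap others on either strand (*Cx3cr1*, *Itga1*, *Cd247*), and their reads may be mixed. Positions are from GENCODE for GRCm38 and promoters from RefSeq. Some genes are not reported here. DESeq2 1.42.0 and other gates, filters and depths were tried as alternatives.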

Additional observations from a re-analysis of the deposited data

Results flagged for a closer look

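For 8 of the 142 genes named, the difference between NK and CD8 T cells went one way in both KG+ libraries and the other way in Kaede-red, beyond the counting interval of each ratio. That is 5.63% of the named genes, and the share over all genes tested was 4.42% (571 of 12918). All of these named genes but *Ccl5* were named by the rule for the smallest differences in a list. Ratios on opposite sides make a fitted difference small. The naming rule thus shaped the first share, and these shares cannot be compared. With 1 KR+ library the difference between the colors was not tested. The counting interval rests on UMI counts alone and leaves out the spread between cells and between libraries. The values are log2 ratios of NK over CD8 T cells, scaled to totals without the TMM factors of the fitted differences. With totals in place of these factors the median fitted difference over all genes was -0.05, against 0.02 with them. Whether small ratios keep their side with TMM factors was not tested. Chemokines had the widest turns: *Ccl5* was at -2.45 in Kaede-red against 0.39 and 0.23 in the KG+ libraries, and *Ccl4* at -1.61 in Kaede-red against 1.03 and 0.36 in the KG+ libraries. The death ligand *Fasl* was at -0.35 in Kaede-red against 0.73 and 0.47 in the KG+ libraries, and the granule membrane gene *Nkg7* at -0.45 in Kaede-red against 0.44 and 0.07 in the KG+ libraries. *Klrc2*, an activating partner of CD94, was at -0.24 in Kaede-red against 0.90 and 0.17 in the KG+ libraries. The feedback inhibitors *Cish* and *Socs1* turned by less, at -0.37 in Kaede-red against 0.21 and 0.09 in the KG+ libraries and -0.28 in Kaede-red against 0.17 and 0.17 in the KG+ libraries. The replication gene *Mcm6* went the other way, at 0.0892 in Kaede-red against -0.29 and -0.18 in the KG+ libraries. Without Kaede-red *Mcm6* was higher in CD8 T cells (log2 difference -0.21, adjusted p = 0.0206). That fit used only the KG+ libraries whose ratios flagged the gene, so it gives no separate support. Depth moved with the colors too, since NK cells were the shallower group in both KG+ libraries and the deeper group in Kaede-red, and its part in these turns was not tested. The difference in depth-matched cells was fitted over the 3 libraries together, so it cannot show a turn between colors. Its sign changed from that in all cells for *Ccl4* (-0.22), *Cish* (-0.06), *Socs1* (-0.03) and *Mcm6* (0.04). For *Ccl5*, *Fasl*, *Nkg7* and *Klrc2* it did not change.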

How the results depend on the processing

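Of 64 gene totals recomputed under 16 alternatives, 58 stayed within 1.5 times the reported value. Without the block for the library, which pairs the sums, 957 genes were higher in NK cells and 946 in CD8 T cells, and 677 were at least 2-fold higher in CD8 T cells. With cells thinned to 2000 UMIs the last number was 695. Leaving out 1 library at a time gave 1024 to 2706 genes higher in NK cells and 1297 to 2763 higher in CD8 T cells, and 741 to 885 and 961 to 1119 with 2-fold changes. The lowest totals came without Kaede-green 2 for all but the last, which was lowest without Kaede-green 1. Of the 1936 2-fold calls, 1298 of 1780 tested kept call and direction without the block, and 1765 did with DESeq2. Scaling to totals gave 1507 and 2290 genes.

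Of 2263 values of single genes, 2065 kept direction and side of the threshold, 83 lost the call, 45 gained it and 70 changed sign. These 70 belong to 21 genes, of which *Gzmd* alone had passed the test. The log2 differences under those settings follow. With RLE factors the sign changed for *Ikzf1* -0.00283. Scaled to totals the sign changed for *Cd69* -0.0266, *Skap1* -0.0548, *Fyn* -0.0256, *Cst7* -0.0186, *Ikzf1* -0.063, *Ccl4* -0.0445 and *Cish* -0.0251. With DESeq2 the sign changed for *Ikzf1* -0.00241. With no filter on low counts the sign changed for *Skap1* -0.00235 and *Ikzf1* -0.0106. Without the block the sign changed for *Ccl5* 0.146 and *Ifitm3* 0.074. In depth-matched cells the sign changed for *Cd69* -0.129, *Skap1* -0.0329, *Fyn* -0.0828, *Ikzf1* -0.0366, *Zeb1* -0.000984, *Ccl4* -0.222, *Cish* -0.0574, *Socs1* -0.0347, *Mcm6* 0.0369 and *Ifitm3* 0.0843. In thinned cells the sign changed for *Itga1* -0.0653, *Cd69* -0.0466, *Skap1* -0.0486, *Cst7* -0.0482, *Zeb1* -0.0821, *Socs1* -0.0168, *Mcm6* 0.068 and *Gzme* -0.113. Without the *Gzmb* condition the sign changed for *Skap1* -0.00752, *Ikzf1* -0.00198 and *Ifitm3* 0.0287. Under the stricter NK gate the sign changed for *Ccl4* -0.000203 and *Gzme* -0.0846. Without cycling cells the sign changed for *Itga1* -0.0367, *Cd69* -0.15, *Skap1* -0.0581, *Fyn* -0.0577, *Ikzf1* -0.052, *Zeb1* -0.0875 and *Mcm6* 0.274. Without possible doublets the sign changed for *Itga1* -0.0129, *Cd69* -0.00361, *Gzmd* -0.701, *Cst7* -0.029, *Mcm6* 0.00328, *Gzme* -1.4 and *Gzmg* -0.353. Without NK cells that held *Cd3d*, *Cd3g* or *Trac* the sign changed for *Tnfrsf9* -0.00871, *Rsad2* 0.159 and *Gzme* -0.0656. Leaving out 1 library at a time gave these ranges for genes whose sign changed, namely *Tnfrsf9* -0.0101 to 0.112, *Fyn* -0.0883 to 0.18, *Nkg7* -0.10 to 0.273, *Ikzf1* -0.135 to 0.11, *Ccl4* -0.537 to 0.715, *Cish* -0.0511 to 0.168, *Mcm6* -0.215 to 0.0445, *Ifitm3* -0.22 to 0.228, *Zeb1* -0.0163 to 0.195, *Ccl5* -1.02 to 0.331, *Itga1* -0.0791 to 0.503, *Il18r1* -0.333 to 0.0502, *Skap1* -0.0398 to 0.0456, *Cd44* -0.276 to 0.00543, *Rsad2* -0.182 to 0.0653 and *Gzme* -0.246 to 0.88. Where a setting changed a gene and no value above bears on it, the cause was not tested. Leaving out NK cells with *Cd3d*, *Cd3g* or *Trac* UMIs was chosen after seeing the data. Depth limits the genes tested: in thinned cells 1269 of the 1936 2-fold calls could be tested, and 1152 kept call and direction.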

Other observations

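Over all 12918 genes tested, 571 had a difference between NK and CD8 T cells that lay on one side in both KG+ libraries and on the other in Kaede-red, beyond counting error in each. NK cells were the higher group among KG+ cells for 396 of these and CD8 T cells for 175. Counting error leaves out the spread between cells and between libraries, so 571 is not a number of tested turns. The genes below were picked after their values were seen, and no test between colors was made. *Cma1*, a chymase known from mast cells, was at 36.7, 14.5 and 1.32 CPM in NK cells and 0.38, 0.344 and 16.6 CPM in CD8 T cells, with log2 ratios of 6.50, 5.34 and -3.65. The granzyme gene *Gzmm* turned the other way, with ratios of -1.36, -1.41 and 1.30. *Adora2a*, a receptor for adenosine, had ratios of 1.16, 0.69 and -0.60, and *Ptger4*, a receptor for prostaglandin E2, 0.59, 0.55 and -0.61. *Crem*, a regulator of cyclic AMP responses, stood at 472, 412 and 214 CPM in NK cells and 299, 299.5 and 324 CPM in CD8 T cells, with ratios of 0.66, 0.46 and -0.60. The cell cycle inhibitor gene *Cdkn1a* was at 171, 156 and 77.3 CPM in NK cells and 77, 77.3 and 107 CPM in CD8 T cells, with ratios of 1.15, 1.01 and -0.47. The heat shock gene *Hspa1b*, which has a near-identical copy, had ratios of 1.00, 0.53 and -0.70.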
